A study of Mus musculus with 6 samples.

Results

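The SPPL2b knockdown line was compared with wild-type 427 cells in the 2 libraries made from DMSO-treated cells, 1 library for each line. Loci of annotated genes were kept when either of the 2 libraries reached 1 FPKM (fragments per kilobase of transcript, scaled to the mapped fragments of the library). This left 10430 of the 21784 loci assigned to known genes, in a table of 25001 loci in all. The 3217 loci without a known gene were handled apart, and 648 of them reached the same minimum. At the border of the rule, the lowest locus kept had a higher value of 1.00004 FPKM and the highest locus left out had 0.998894 FPKM.

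The study used mouse 427 thymoma cells and polyadenylated RNA sequenced in paired ends, with 6 libraries in all. Cells labelled 427 carried the pSUPER vector without an insert, and SP2bKD cells carried a knockdown of SPPL2b. Both lines of the DMSO pair were kept without serum for 2 h and then given DMSO for 2 h. A further library of each line was treated with 1 µM PMA (phorbol 12-myristate 13-acetate, an activator of protein kinase C that causes shedding of epithin) for 2 h. The other two SP2bKD libraries came from cells transfected with GFP alone or with GFP and the epithin intracellular domain (EICD, labelled N55) and sorted for GFP. The labels call the knockdown an siRNA, while the study's methods describe a stable shRNA and single-cell clones, and neither names the clone behind the DMSO library. Line and clone therefore cannot be told apart, and with 1 library on each side no value below was tested. The protocol text among the labels mentions PMA alone for the knockdown line, whereas the treatment field of the library used here reads DMSO.

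SPPL2b is an intramembrane aspartyl protease of the signal peptide peptidase family, which cuts within the membrane the stubs that remain after the ectodomains of single-pass proteins have been shed. Epithin, encoded by St14, is a membrane serine protease of epithelial cells, and its stub is the substrate the study was concerned with. An shRNA acts through its antisense strand, which guides the silencing complex to the matching stretch of a transcript, and short matches between the guide's seed and other transcripts can lower those as well.

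The target named in the methods was found in 3 annotated transcripts of Sppl2b and in no transcript of another gene. It lies at chr10:80867473-80867491 of GRCm38 on the plus strand, in the coding part of exon 15 of 15, at bases 1634 to 1652 of a transcript of 2869 bases. It is shown because it is the only designed sequence that separates the lines, and the capitals mark the bases that pair with the seed, bases 2 to 8 of the antisense strand.
Sppl2b target: ccgagcagcctCCAAGTGa

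Sppl2b was not lower in the knockdown library. Its locus (chr10:80853006-80868705) had 9.90 FPKM in 427 and 13.4 FPKM in SP2bKD with DMSO, a 1.35-fold higher level and a log2 ratio of 0.44. With PMA it had 6.86 and 9.37 FPKM, and the GFP and GFP plus EICD libraries of SP2bKD had 11.4 and 13.2 FPKM. The SP2bKD libraries lay above both 427 libraries except the one with PMA, which lay between them. From the depth estimated below, about 965 and 1260 fragments stood behind the DMSO values, which gives a 95% interval for the log2 ratio of 0.31 to 0.56 (exact binomial, counting error only). The library labelled SP2bKD is therefore called by its label, and every direction below is that of the labelled libraries. By the study's methods, the single-cell clones were checked for SPPL2b messenger RNA by qPCR, a measurement that is not among these files, and SPPL2b protein was not measured in them either. The paper presents the clones as knocked down by this qPCR and reports that less EICD formed in the clones with PMA.

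The Sppl2b locus shares 2204 bases with Lsm7, which lies on the other strand at chr10:80852825-80855209 and encodes a subunit of the Sm-like ring on U6 RNA. The kit named in the labels does not mark the strand, so reads from the shared bases cannot be told apart. Lsm7 had 69.5 FPKM in 427 and 33.6 in SP2bKD with DMSO, a 2.07-fold lower level. With PMA the same locus had 74.3 and 60.8 FPKM, so the difference was smaller there. The 102 loci in the surrounding 10 Mb of chromosome 10 had a median log2 ratio of 0.14 in the DMSO pair.

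The seed match CCAAGTG was looked for on the transcript strand in the longest annotated 3′ UTR of each tested gene. It was present in 1577 of 9933 loci with such a UTR, 15.9% of them. Loci with the match had a median log2 ratio of 0.03 and those without it 0.04 in the DMSO pair, and 1.84% and 2.53% of them were more than 2-fold lower. When loci were split into 3 equal classes by UTR length, the medians with and without the match were 0.054 and 0.060 in the shortest class, 0.019 and 0.047 in the middle class and 0.034 and 0.017 in the longest. In these classes 2.27%, 1.598% and 1.89% of loci with the match were more than 2-fold lower, against 2.73%, 2.34% and 2.47% without it. These values describe the 2 libraries, and a part of the guide's seed in the differences was not tested.

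The other proteases of the family kept similar levels. Sppl2a, the closest relative of Sppl2b, had 54.5 and 61.0 FPKM, and Sppl3 had 62.4 and 61.2 FPKM in 427 and SP2bKD with DMSO. Hm13, the signal peptide peptidase itself, had 91.6 and 97.3 FPKM at a locus that also spans Id1 and Mcts2. Sppl2c was listed at 0 in every library. St14 had 85.6 and 81.8 FPKM with DMSO and 105 and 100 FPKM with PMA, so the substrate's messenger RNA was alike in the lines. Of the 10 expressed intramembrane proteases, 10 sheddases and known SPPL2 substrates and 9 genes around epithin, none was past 2-fold with DMSO. Of all tested loci, 94.7% lay within 2-fold. The largest ratio among the members of these 3 lists was that of Psen2, a catalytic subunit of gamma-secretase, with 2.66 and 5.03 FPKM, a gene chosen after its values were seen. With PMA Psen2 (3.16 and 7.36 FPKM) and Plau (78.6 and 38.2 FPKM) were past 2-fold.

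The 2 libraries were alike in the genes they held and had similar estimates of depth. Their depth, estimated from the smallest values of long single-transcript genes, was 26.8 M fragments in 427 and 25.8 M in SP2bKD, and 25.3 M to 28.6 M over all 6 libraries. Only values within a fixed range entered the estimate, which limits how far the libraries could differ in it. Between 92.1% and 96.6% of each library's FPKM sum fell on the loci without a known gene, so no sum was used to scale the main values. Thymic epithelial markers were present in both: the Krt5 locus, which also spans Krt6a and Krt6b, had 6017 and 4246 FPKM, Epcam 169 and 209 FPKM and Foxn1 10.98 and 13.2 FPKM. Of the markers of other cell types, 1 of 16 T cell genes, 2 of 13 macrophage and dendritic cell genes, 2 of 12 fibroblast genes and 1 of 10 endothelial genes reached 1 FPKM, and the 4 lists summed to between 2.64 and 12.5 FPKM in the 2 libraries. The fibroblast list had the lowest sum, with 2.64 FPKM in 427 and 3.88 in SP2bKD, and 6 of the T cell genes were listed at 0 in both. The immediate early genes that PMA induces summed to 443 FPKM in 427 and 328 in SP2bKD with DMSO, against 1558 and 911 with PMA, so neither DMSO library looked like a PMA library.

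Most genes differed little between the lines. Of the 10430 loci, 86.2% lay within 1.5-fold and 94.7% within 2-fold, and the median log2 ratio was 0.04. A log2 ratio here is that of SP2bKD over 427 after 0.01 FPKM was added to both. With DMSO 295 loci (2.83%) were more than 2-fold higher in SP2bKD and 258 (2.47%) more than 2-fold lower, of which 83 and 68 were past 4-fold and 36 and 30 past 8-fold. At 0 FPKM stood 7 of the loci in 427 and 14 in SP2bKD.

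**Figure D1:**
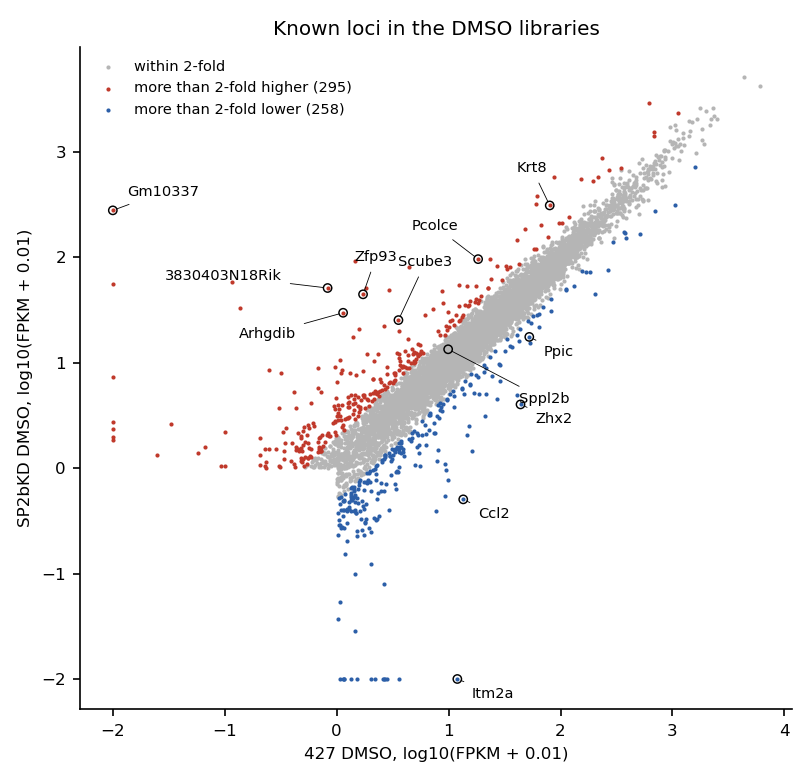
Each point is 1 of 10430 known loci, with log10(FPKM + 0.01) in the 427 DMSO library on the x axis and in the SP2bKD DMSO library on the y axis. The 295 red points are more than 2-fold higher in SP2bKD and the 258 blue points more than 2-fold lower. Sppl2b, with 9.90 and 13.4 FPKM, sits inside the grey band, and points at -2 on an axis are loci listed at 0 in that library.

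The PMA libraries of the same 2 lines share no library with the DMSO pair and were used to see which differences recurred. Of the 295 loci higher with DMSO, 126 were also more than 2-fold higher with PMA (42.7%), or 1.21% of all tested loci, while 2.18% of tested loci were higher with PMA. Of the 258 lower loci, 154 were lower again (59.7%), or 1.48% of all tested loci, against 2.31% lower with PMA. In the opposite direction past 2-fold with PMA were 6 of the higher and 2 of the lower loci. The recurrence covers cells of the same 2 lines and says nothing of another clone.

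Recurrence went with the length and kind of the transcript. Of 78 loci past 2-fold whose longest transcript was under 1000 bases, 24 recurred in the PMA pair (30.8%). Among loci with 2500 bases or more, 177 of 301 did (58.8%). Annotated pseudogenes were few, 31 loci, yet 16 of them were higher and 3 lower with DMSO, and only 1 of these 19 recurred. At 100 FPKM or more 40 loci were past 2-fold and 5 recurred. What sets these short and abundant loci apart in the DMSO pair was not tested.

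**Figure D2:**
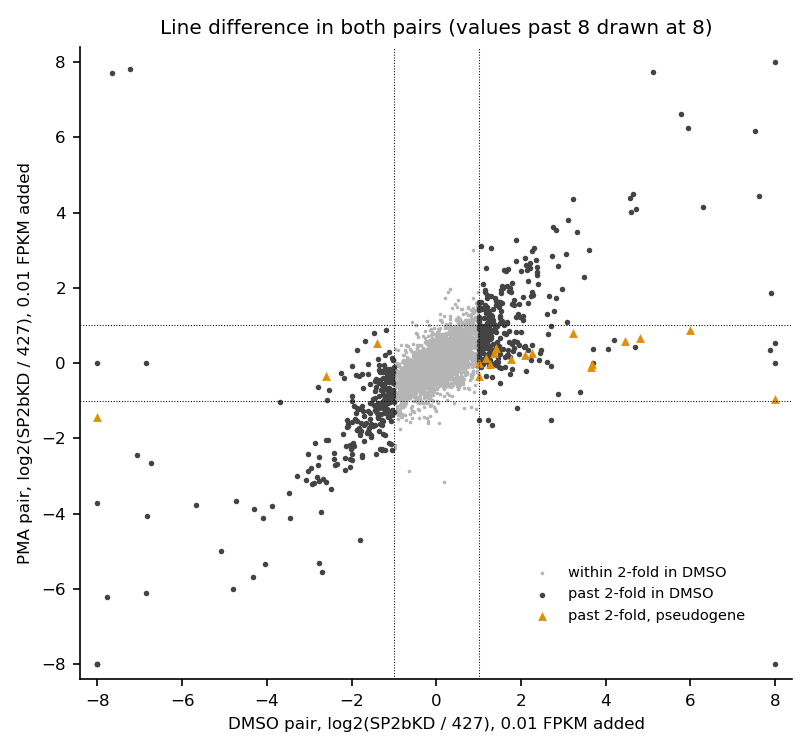
Each point is 1 known locus, with the log2 ratio of SP2bKD over 427 in the DMSO libraries on the x axis and in the PMA libraries on the y axis, values past 8 being drawn at 8. Dark points and orange triangles are past 2-fold with DMSO. Of the 553 loci past 2-fold, 280 lie beyond the dotted lines at 2-fold on both axes in the same direction. Only 1 of the 19 pseudogenes among the 553 does so.

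The genes named next are the 15 highest and the 15 lowest by the log2 ratio with 1 FPKM added, among the 8932 named loci that reached 5 FPKM in either library. Among the 15 highest, 10 had transcripts under 1000 bases, 3 were annotated as pseudogenes, and 5 were also past 2-fold with PMA. Among the 15 lowest, 4 had such short transcripts and 13 were also past 2-fold with PMA. The ranking thus put mostly short loci at the top and longer protein-coding genes at the bottom.

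The higher genes that recurred in every SP2bKD library were few. Gm10337, a predicted gene of 165 bases opposite Map3k12 (chr15:102503722-102503886), was listed at 0 in both 427 libraries and had 279, 273, 661 and 1038 FPKM in the SP2bKD DMSO, PMA, GFP and GFP plus EICD libraries. Arhgdib, a GDP-dissociation inhibitor for small GTPases in blood cells, had 1.13 and 1.78 FPKM in the 427 DMSO and PMA libraries against 29.8, 30.2, 27.0 and 28.3 FPKM in the 4 SP2bKD libraries. The X-linked gene 3830403N18Rik had 0.820 and 0.660 FPKM against 51.2, 51.0, 45.9 and 35.3 FPKM. Arhgdib and 3830403N18Rik varied little within each line next to the gap between the lines, whereas Gm10337 was higher in both sorted libraries than in the other SP2bKD libraries. Pla2g1b, a secreted phospholipase A2, had 0.237 and 0.0306 FPKM in 427 and between 7.61 and 9.43 FPKM in the SP2bKD libraries.

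Other high ranks belonged to the DMSO library alone. Gm11808, a locus of 504 bases, had 0.107 FPKM in 427 and 57.8 in SP2bKD with DMSO, but 6.62 and 9.50 FPKM with PMA. Gm10269 had 1.44 and 92.1 FPKM with DMSO and 12.9 and 23.8 with PMA. Rpl10-ps3 had 0.127 and 33.1 FPKM with DMSO and 0.830 and 3.06 with PMA, a difference that stayed past 2-fold but was far smaller. For these 3 loci the 427 DMSO library held the lowest and the SP2bKD DMSO library the highest value of all 6.

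The same shape held for Gm10146 (1.81 and 51.2 FPKM with DMSO, 7.97 and 12.6 with PMA), Gm10135 (2.92 and 49.0, then 9.91 and 12.8), Gm6169 (1.57 and 20.7, then 6.48 and 8.43) and Gm9797 (1.39 and 17.6, then 9.99 and 9.32). Gm11027, of 198 bases, was listed at 0 in 427 with DMSO and had 56.3 FPKM in SP2bKD, but had 35.7 and 0 FPKM with PMA. Gm10073 differed in that only the 427 DMSO library stood apart, with 4.40 FPKM against 81.0 to 179 FPKM in the other five. Dut, which encodes deoxyuridine triphosphatase, was listed at 0 at this locus in 5 libraries and had 7.26 FPKM in the SP2bKD DMSO library. Zfp93, a zinc finger gene, had 44.6 FPKM in SP2bKD with DMSO and 37.2 FPKM with GFP, but 1.46 to 2.20 FPKM in the other four libraries.

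**Figure D3:**
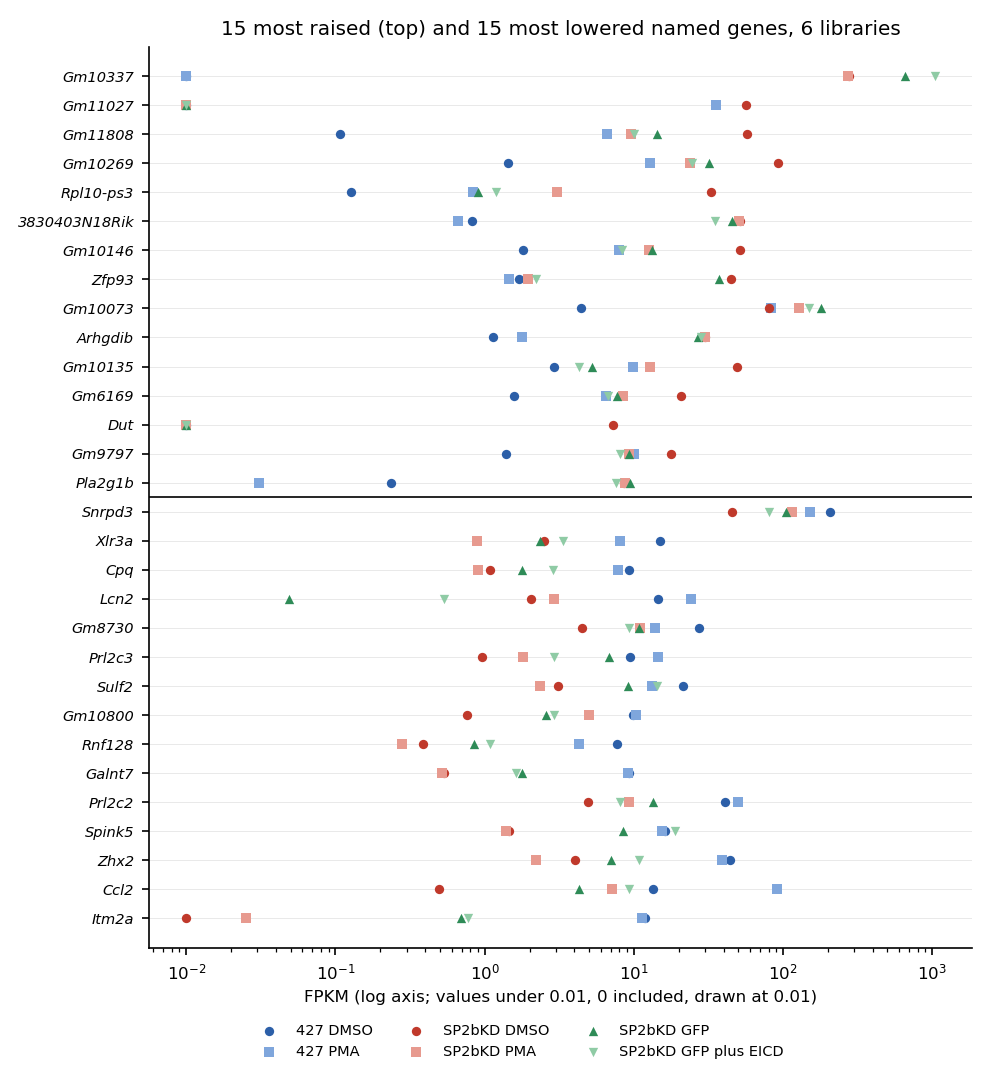
FPKM on a log axis in each of the 6 libraries for the 15 genes ranked highest (above the line) and the 15 ranked lowest in SP2bKD with DMSO, with values under 0.01 drawn at 0.01. Circles are DMSO, squares PMA and triangles the sorted GFP libraries. For Arhgdib the 427 libraries have at most 1.78 FPKM and the SP2bKD libraries at least 27.0, while for Gm11808 the 2 DMSO libraries, with 0.107 and 57.8 FPKM, are the lowest and highest of the 6.

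Of the 15 lower genes 8 lay more than 2-fold below both 427 libraries in all 4 SP2bKD libraries, against 4 of the 15 higher genes that lay above them. Itm2a, a membrane protein with a BRICHOS domain (chrX:107397099-107403376), had 12.0 and 11.3 FPKM in 427 with DMSO and PMA, was listed at 0 in SP2bKD with DMSO, and had 0.025, 0.693 and 0.774 FPKM in the other SP2bKD libraries. Zhx2, a homeobox transcriptional repressor, had 43.9 and 38.8 FPKM in 427 against 4.02, 2.22, 7.05 and 10.8 FPKM. Galnt7, a glycosyltransferase of O-linked chains, had 9.31 and 9.18 FPKM against 0.535, 0.514, 1.79 and 1.63 FPKM. In each of these genes the highest SP2bKD library stayed below the lower of the 427 libraries.

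Rnf128, the ubiquitin ligase GRAIL, had 7.78 FPKM in 427 and 0.383 in SP2bKD with DMSO, a 20.3-fold lower level. Cpq, a secreted carboxypeptidase, was 8.54-fold lower with 9.33 and 1.09 FPKM. Xlr3a, of an X-linked family expressed in lymphocytes, was 6.06-fold lower with 15.1 and 2.49 FPKM. All 3 genes kept the order with PMA. Lcn2, the iron-siderophore carrier lipocalin 2, had 14.5 and 24.1 FPKM in the 427 libraries and 2.04, 2.93, 0.0489 and 0.534 FPKM in SP2bKD.

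Prolactin family genes of the proliferin group were low as a pair. Prl2c2 had 40.6 and 4.94 FPKM and its neighbour Prl2c3 had 9.43 and 0.959 FPKM in 427 and SP2bKD with DMSO. The 2 genes are near-identical copies at 1 site on chromosome 13, so how reads were divided between them is uncertain.

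Some low genes returned in the sorted SP2bKD libraries. Spink5, which encodes the epithelial protease inhibitor LEKTI, had 16.2 and 15.5 FPKM in 427 and 1.45 and 1.40 FPKM in SP2bKD with DMSO and PMA, but 8.46 FPKM with GFP and 18.8 FPKM with GFP plus EICD. Sulf2, an endosulfatase of heparan sulfate, had 21.2 and 3.13 FPKM with DMSO and 9.17 and 14.3 FPKM in the sorted libraries. Those libraries came from transfected and sorted cells, so the treatment cannot be told apart from a difference in cell stock. Gm8730 and Snrpd3, a core Sm protein of the spliceosome, had 27.2 and 4.47 FPKM and 205 and 45.2 FPKM with DMSO, but 13.95 and 11.03 and 151 and 114 FPKM with PMA. Gm10800 had 9.93 and 0.760 FPKM with DMSO and 10.3 and 4.97 FPKM with PMA.

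A stricter set of genes was formed after the values had been seen, by asking that every SP2bKD library lie more than 2-fold on the same side of both 427 libraries. It held 41 higher loci (0.393% of those tested) and 46 lower loci (0.441%). Their direction is fixed by the choice, and the set is described, not tested.

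The 41 higher loci are described by genes whose function is known. The locus of Pcolce, which enhances procollagen processing and here also spans Fbxo24, had 18.4 and 14.2 FPKM in 427 and 96.2, 75.3, 82.5 and 78.4 FPKM in SP2bKD. Thbs2, a matricellular thrombospondin, had 13.1 and 8.98 FPKM against 27.2, 27.5, 39.9 and 30.7 FPKM. Scube3, a secreted signalling protein, had 3.55 and 2.04 FPKM against 25.4, 23.7, 20.04 and 20.6 FPKM. A gap between the lines is fixed by the choice of the set, and with DMSO Thbs2 was close to the 2-fold line (2.09-fold). Dbn1, the actin-binding protein drebrin, was 8.38-fold higher with DMSO, Dmd, which encodes dystrophin, 7.84-fold, and Pcdh19, a protocadherin, 4.65-fold. Ptn, the growth factor pleiotrophin, and Ptprz1, its receptor phosphatase, were 4.59-fold and 2.55-fold higher. Lgr6, a receptor for R-spondins, was 5.15-fold higher, with 1.47 and 7.57 FPKM.

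Among the 46 lower loci, 2 were listed at 0 in every SP2bKD library. Ptafr, the receptor for platelet-activating factor, had 3.63 and 4.44 FPKM in 427, and Hoxa10, a homeobox gene, had 1.15 and 0.677 FPKM. Ppic, the secretory-pathway cyclophilin C, had the highest level of the set, with 52.6 and 64.3 FPKM in 427 against 17.6, 17.8, 15.9 and 15.3 FPKM. Arsb, the lysosomal arylsulfatase B, had 21.5 and 15.8 FPKM against 5.03 to 5.15 FPKM over the 4 SP2bKD libraries. That these genes were low in every SP2bKD library follows from the choice of the set. Saa3, an acute-phase protein, had 24.4 and 29.0 FPKM against 7.47 and 10.9 FPKM with DMSO and PMA, and was listed at 0 with GFP. Also in the set were Sdc2 (syndecan 2, 3.47-fold lower), Tfpi (tissue factor pathway inhibitor, 4.65-fold lower) and Nt5e (the ectonucleotidase CD73, 4.05-fold lower).

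Gene lists were then read for counts past 2-fold. The 32 lists held 584 distinct expressed loci, of which 19 were higher (3.25%, against 2.83% of all loci) and 32 lower (5.48%, against 2.47%), and 13 lists had no member past 2-fold. Members and lists were chosen with earlier results of these data known, so these shares are described, not tested. A member could reach 1 FPKM in either library, and some entered only through the library where they were higher. The plot of the list members shows the spread of each.

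**Figure D4:**
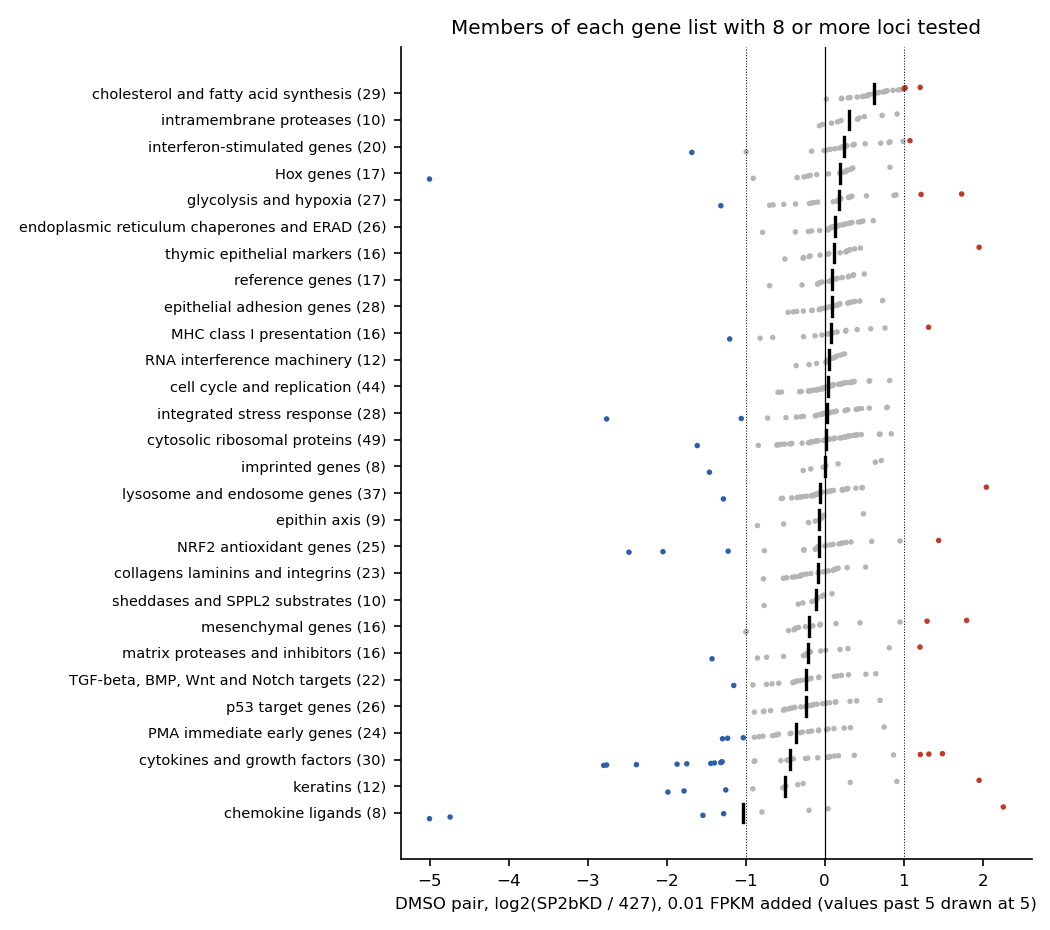
Each point is 1 expressed member of a gene list, placed by its log2 ratio of SP2bKD over 427 in the DMSO libraries, with the number of loci in brackets, values past 5 drawn at 5 and a black bar at the list's median. Red and blue points are past 2-fold. The 29 cholesterol and fatty acid loci all lie above 0 with a median of 0.63, and the 8 chemokine ligands have the lowest median, -1.04.

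Genes of cholesterol and fatty acid synthesis were higher as a group. All 29 expressed loci had a positive log2 ratio with DMSO, with a median of 0.63 against 0.04 over all tested loci, and 4 were past 2-fold and none below. Lss, lanosterol synthase, had 35.1 FPKM in 427 and 81.2 in SP2bKD with DMSO. Idi1, the isopentenyl diphosphate isomerase, had 59.8 and 121 FPKM, and Cyp51, the lanosterol demethylase, had 77.5 and 156 FPKM. Hmgcs1, a synthase early in the mevalonate pathway, had 104 and 210 FPKM. These 4 were all close to the 2-fold line, between 2.01-fold and 2.31-fold.

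The group stood higher in the PMA pair too, where all 4 genes were again past 2-fold and the list's median log2 ratio was 0.88. Both lines had lower levels with PMA than with DMSO, by a median of -0.68 in 427 and -0.45 in SP2bKD on the log2 scale. In the SP2bKD GFP library the list was near 427 with DMSO, at a median log2 ratio of 0.13, with Lss at 38.2, Idi1 at 71.9 and Hmgcs1 at 83.0 FPKM.

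Promoter windows reaching from 250 bases before to 50 after a RefSeq start site (GRCm38.p6) were searched on both strands for TCACNCCAC, a form of the sterol regulatory element. It was present in 408 of 32851 windows (1.24%). Counted by gene, 1.44% of the 27025 genes with a window had it, and 1 of the 21 list genes with a window. That gene was Hmgcs1, at chr13:119690194-119690242 on the plus strand, where the element starts 137 bases before the start site. Its surroundings are shown as the one list promoter with the motif, which is in capitals. For the other list genes this says only that these letters are not in the window.
Hmgcs1 promoter: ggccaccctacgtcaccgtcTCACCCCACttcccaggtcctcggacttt

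Of 8 expressed chemokine ligands 4 were more than 2-fold lower and 1 higher, with a median log2 ratio of -1.04. Over all tested loci 2.47% were lower and 2.83% higher. Ccl2, a chemokine for monocytes (chr11:82035571-82037453), had the largest ratio among those above 0, with 13.5 FPKM in 427 and 0.496 in SP2bKD with DMSO, and 91.1 and 7.17 FPKM with PMA. Cxcl1 and Cxcl5, which recruit neutrophils, had 28.1 and 9.65 FPKM and 21.8 and 8.98 FPKM with DMSO. Ccl7, the neighbour of Ccl2, had 1.05 FPKM in 427 and was listed at 0 in SP2bKD. All 4 were also lower past 2-fold with PMA. Ccl5 went the other way with 0.504 and 2.45 FPKM, about 9.04 and 42.3 fragments, and had 7.81 and 10.9 FPKM with PMA. With DMSO, Ccl2 and Ccl7 reached 1 FPKM only in 427, and Ccl5 only in SP2bKD. In the SP2bKD GFP library Cxcl1 had 175 and Cxcl5 40.9 FPKM, above the 427 DMSO level.

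Of 30 expressed cytokines and growth factors 10 were more than 2-fold lower and 3 higher, and the median log2 ratio was -0.44. Over all tested loci 2.47% were lower and 2.83% higher. Bmp7 (2.24 and 0.314 FPKM), the divergent family member Gdf15 (2.39 and 0.344 FPKM) and the stem cell factor Kitl (5.51 and 1.05 FPKM) were the most lowered. Ligands of the EGF family were among them, with Areg at 3.41 and 0.929 FPKM and Nrg1 at 15.4 and 6.21 FPKM. Il1a, the alarmin interleukin 1 alpha, had the highest level of the 10, with 36.7 and 13.9 FPKM with DMSO and 406 and 161 FPKM with PMA. Csf3 had 1.54 and 0.453 FPKM with DMSO, and 80.5 and 14.1 with PMA. Both genes were higher with PMA than with DMSO in each line, and lower in SP2bKD than in 427 under either condition. With DMSO, Bmp7, Gdf15, Areg and Csf3 reached 1 FPKM only in 427, so they were kept through the library where they were high.

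Inhbb, a subunit of activin B, had 13.6 and 5.01 FPKM with DMSO and 8.79 and 6.29 FPKM with PMA. The angiogenic factors Vegfa and Vegfc were 2.49-fold and 2.46-fold lower. Higher were Bmp4 (2.78 and 7.84 FPKM), Fgf1 (1.41 and 3.52 FPKM) and the insulin-like growth factor binding protein Igfbp5 (3.30 and 7.67 FPKM). With PMA 8 of the 10 lower and 2 of the 3 higher loci were past 2-fold again. In the SP2bKD GFP library 5 of the 10 lower loci stood at or above their 427 DMSO level, so the lower values were not common to all SP2bKD libraries.

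Immediate early genes had a median log2 ratio of -0.37 over 24 loci, with none higher and 3 lower past 2-fold. Fosl1, a Fos-related subunit of AP-1, had 4.71 and 1.92 FPKM with DMSO and 73.8 and 49.5 with PMA. Dusp4, a MAP kinase phosphatase, had 13.1 and 5.59 FPKM and Egr1 had 10.3 and 5.02 FPKM with DMSO. In the SP2bKD GFP library all 3 were above the 427 DMSO level, Egr1 at 88.8 FPKM.

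The keratins moved apart from each other, while no epithelial adhesion gene on the list was past 2-fold. Krt8, a keratin of simple epithelia, had 80.1 FPKM in 427 and 311 in SP2bKD with DMSO, and 136 and 403 with PMA, while its partner Krt18 had 71.6 and 89.6 FPKM. The wound-associated Krt16 had 53.3 and 15.5 FPKM, Krt6b had 1.09 and 0.269 FPKM and Krt13 had 1.15 and 0.477 FPKM with DMSO. Krt6b and Krt13 reached 1 FPKM with DMSO only in 427. Over 12 keratins the median log2 ratio was -0.50. In the sorted GFP library Krt8 had 143 and Krt16 130 FPKM, each nearer to or beyond the level of 427. The 28 expressed epithelial adhesion genes had no member past 2-fold, with Cdh1 (E-cadherin) at 123 and 141 FPKM.

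Of 16 mesenchymal genes 2 were higher and none lower past 2-fold. Sparc, a matricellular protein, had 11.6 and 28.5 FPKM, and the intermediate filament gene Vim had 0.292 and 1.04 FPKM, a low level in both. Of the 16 genes 5 lay above 0 and 11 below, and the list's median was -0.20. Just inside the 2-fold line with DMSO stood Ctgf (1.994-fold lower), Lox (1.988-fold lower) and Zeb1 (1.947-fold higher). With PMA their log2 ratios were 0.086, -0.968 and 0.730. The fibroblast marker Pdgfrb had 0.445 and 1.52 FPKM with DMSO, but 0.038 and 0.074 FPKM in the SP2bKD GFP and GFP plus EICD libraries. None of the 23 collagen, laminin and integrin loci was past 2-fold. Among 16 matrix proteases and inhibitors, Timp3 was lower (1.42 and 0.523 FPKM) and Adamts4 higher (0.855 and 1.99 FPKM).

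Antioxidant genes under NRF2 had 3 lower members and 1 higher of 25, with a median of -0.07. Nqo1, a quinone reductase, had 2.50 and 0.598 FPKM, Aldh3a1 1.81 and 0.317 FPKM and Gsta1 1.14 and 0.482 FPKM, while Gstm2 had 1.73 and 4.72 FPKM. Nqo1 and Aldh3a1 were low in all 4 SP2bKD libraries. Among 37 lysosomal and endosomal loci, Ctsa, the protective protein cathepsin A, had 35.1 and 14.5 FPKM and Manba, beta-mannosidase, had 0.934 and 3.89 FPKM.

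Lists of immunity and stress differed in single members. Of 20 interferon-stimulated loci Gbp2 was higher (0.974 and 2.07 FPKM) and Oasl2 lower (1.13 and 0.345 FPKM), around a median of 0.25. Of 16 loci of MHC class I presentation H2-M3 was higher (1.55 and 3.88 FPKM) and Tap1, a peptide transporter subunit, lower (2.99 and 1.30 FPKM), with a median of 0.08. In the integrated stress response list of 28 loci, Cebpb (14.04 and 6.75 FPKM) was lower beside Gdf15. In the glycolysis and hypoxia list of 27, Bnip3 (15.1 and 35.3 FPKM) and Aldoc (0.489 and 1.65 FPKM) were higher, and Vegfa was lower. With PMA neither Bnip3 nor Aldoc was past 2-fold.

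The remaining lists had 1 member past 2-fold or none. Smad7, an inhibitor of TGF-beta signalling, had 8.49 and 3.82 FPKM among 22 targets of developmental pathways. Phlda2 had 3.87 and 1.40 FPKM among 8 imprinted genes. Rpl27a had 510 and 167 FPKM with DMSO and 378 and 311 FPKM with PMA among 49 ribosomal protein loci, whose median was 0.02. Hoxa10 was the one lowered of 17 Hox genes. No locus was past 2-fold among 44 of the cell cycle, 26 p53 targets, 26 of the endoplasmic reticulum, 12 of the RNA interference machinery and 17 reference genes.

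Loci without a known gene varied far more between the libraries. Of 648 loci 139 were more than 2-fold higher in SP2bKD (21.5%) and 89 lower (13.7%), with a median log2 ratio of 0.24, and 66 and 60 of them recurred with PMA. The 3 highest by the ranking rule lay at chr6:20924587-20924732, chr7:8351303-8351494 and chr12:20771039-20771228. All 3 were listed at 0 in 427 with DMSO and had 4975, 487 and 88.1 FPKM in SP2bKD. The first of them had 887 FPKM in 427 with PMA, so the 427 line was not without it. The 3 lowest lay at chr12:87922311-87922433, chr7:47734393-47734622 and chr19:46501366-46501594, with 30545, 39.4 and 32.1 FPKM in 427 and a listing of 0 in SP2bKD with DMSO. The first of these had 10544 FPKM in SP2bKD with PMA.

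Small differences followed the position of genes. Over 9785 loci with 1 FPKM or more in all 4 DMSO and PMA libraries the median log2 ratio was 0.04 with DMSO and 0.02 with PMA. Chromosome 19 had a median of 0.36 over 346 loci with DMSO and 0.32 with PMA, and 89.3% of its loci were above 0 against 55.7% over all chromosomes. Chromosome 8 had a median of -0.19 over 505 loci in both pairs, and 27.9% of its loci were above 0. The other chromosomes but 18 had medians between -0.07 and 0.17 with DMSO.

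Within chromosomes the differences varied by segment. The 154 loci of chromosome 1 from 160 Mb onwards had a median of 0.45, a 1.37-fold higher level. On the same chromosome the 170 loci between 30 and 80 Mb had a median of -0.30, and the 199 loci between 80 and 160 Mb had 0.12. On chromosome 18 the 132 loci from 40 Mb onwards had a median of -0.39 and the 117 loci before it 0.26. The segment of the X chromosome between 90 and 110 Mb, where Itm2a lies, had -0.38 over 48 loci, with 0.091 over the 158 loci before it and -0.20 over the 92 loci after it. With PMA the distal segments of chromosomes 1 and 18 and the X segment had medians of 0.44, -0.39 and -0.39, and the lower segment of chromosome 1 had -0.25. The SP2bKD GFP library against 427 with DMSO gave 0.42, -0.48 and -0.48, and -0.36 for the lower segment of chromosome 1. Of 241 windows of 10 Mb with 10 loci or more, 11 had a median above 0.25 and 17 below -0.25 in both pairs. The borders were placed after the values had been seen, and DNA copy number was not measured in these files. Of the genes described above, Adamts4 and Psen2, which were higher, lie on distal chromosome 1. On distal chromosome 18 lie Smad7, Spink5 and Ppic, which were lower, and Pdgfrb, which was higher. Lox, lower but just inside the 2-fold line, lies there too. Fosl1, which was lower, lies on chromosome 19, where the median was above 0. Igfbp5, which was higher, lies in the lower segment of chromosome 1. On chromosome 8 the windows from 10 to 50 and from 60 to 80 Mb had medians between -0.34 and -0.30 with DMSO. Those from 80 to 110 Mb had medians between -0.060 and 0.053, and those from 110 to 130 Mb had -0.29 and -0.34. Nrg1, Dusp4 and Gdf15, which were lower, lie in the low windows before 80 Mb. Vegfc and Galnt7, also lower, lie between those windows.

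**Figure D5:**
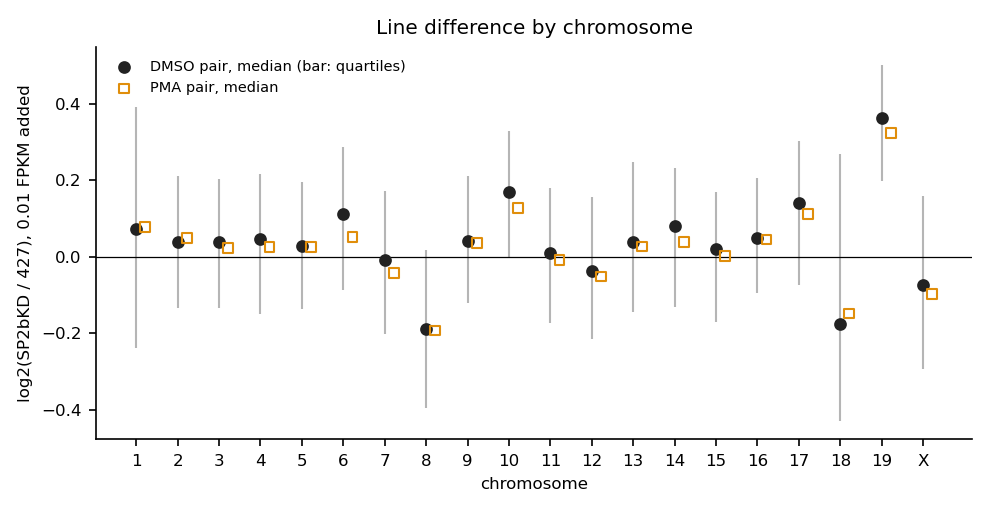
Median log2 ratio of SP2bKD over 427 for the loci of each chromosome with 1 FPKM or more in all 4 DMSO and PMA libraries. Black circles are the DMSO pair with bars from the lower to the upper quartile of loci, and open squares are the PMA pair. Chromosome 19 stands highest in both pairs (0.36 and 0.32) and chromosome 8 lowest (-0.19 in both).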

How the data were processed

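Polyadenylated RNA of mouse 427 thymoma cells was sequenced as paired ends of 100 bases, 1 library per condition. The submitters' processing notes name STAR 2.4.0b, TopHat2 2.1.1, Cufflinks 2.1.1 and Cuffdiff 2.1.1 and the build GRCm38, without their roles. The authors deposited 1 table of FPKM per library, over the same 25001 loci, with no counts and no replicates.

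The main value was log2((SP2bKD + 0.01) / (427 + 0.01)) of the deposited FPKM with DMSO, over loci with a known gene that reached 1 FPKM in either library. A locus was called past 2-fold without a test. The PMA pair was treated alike over the same loci. Transcript lengths, gene types and UTRs came from GENCODE M21 (21029 of 21784 known loci matched by gene ID), promoters from RefSeq. Of 8703 annotated loci with a GENCODE ID, 99.8% overlapped that gene. Depth was estimated from the median of FPKM times length in single-transcript genes over 2500 bases, within a fixed range of small values. That range bounds the estimates, so fragment numbers are approximate and intervals cover counting error only.

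Named genes were the 15 highest and 15 lowest by log2((SP2bKD + 1) / (427 + 1)) at 5 FPKM or more, up to 6 members past 2-fold of each of 32 lists, the SPPL family, Lsm7 and St14, and 3 loci without a known gene each way. Genes outside this rule were chosen after their values were seen. Where a list had more than 6 members past 2-fold, the others are given as well. Members and lists were chosen with earlier results of these data known. The calculation was tested on simulated data. Python 3, NumPy, pandas, SciPy and matplotlib were used. Alternatives changed the added amount, the minimum FPKM, the scaling and the loci kept.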

Additional observations from a re-analysis of the deposited data

Results flagged for a closer look

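The ratio of SP2bKD over 427 pointed one way with DMSO and the other way with PMA for 9 genes with values in the text, of which 4 were past 2-fold with DMSO. The difference between the pairs was not tested, since each rests on 1 library per line. Gm11027 had a log2 ratio of 12.46 with DMSO and -11.80 with PMA, 1 library of each pair being listed at 0, so the sizes depend on the added amount. Gm9797, a pseudogene, had 3.66 and -0.10. Oasl2, an interferon-stimulated gene, had -1.68 and 0.58, at levels between 0.345 and 1.13 FPKM. Egr1, an immediate early transcription factor, had -1.03 and 0.082. The other 5 were within 2-fold in both pairs. Krt18 had log2 ratios of 0.32 and -0.16, the Hm13 locus 0.088 and -0.17, and Sppl3 -0.028 and 0.063 with DMSO and PMA. Zfp933 had -0.10 and 0.066, and Gm13251 had 0.19 and -0.0057.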

How the results depend on the processing

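The counts of loci more than 2-fold higher (295), lower (258) and past 2-fold in both pairs (280) followed the filter. With 1 FPKM added they were 177, 133 and 129, with no minimum 1310, 1524 and 1045, with a minimum of 0.1 FPKM 707, 784 and 702, and with 10 FPKM 109, 68 and 60. Over annotated loci without new isoforms they were 85, 61 and 54. Members of the gene lists past 2-fold, 19 higher and 32 lower, became 11 and 21 with 1 FPKM added, 59 and 92 with no minimum, 45 and 64 at 0.1 FPKM, 7 and 13 at 10 FPKM, and 4 and 10 without new isoforms.

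Scaling SP2bKD to the FPKM sum of 427 moved the median of all loci by 0.97 on the log2 scale, since loci without a known gene make up most of that sum. The 3 counts were then 5367, 75 and 5149, the list members 284 and 9, and the Sppl2b log2 ratio 1.41 in place of 0.44. Under this scaling the medians of the keratins and of the cytokines turned from -0.50 and -0.44 to 0.47 and 0.52, still below the median of all loci, 1.01. The chemokine median of -1.04 was -0.067 under this scaling, 0 with no minimum and -4.74 without new isoforms. Equal upper quartiles gave 265, 284 and 278 loci, and centring on the median 269, 283 and 278. Leaving out short transcripts or pseudogenes, 2 alternatives chosen after seeing the data, gave 243 and 279 higher and 213 and 255 lower loci.

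No paired analysis was run, and each condition has only 1 library. An additive fit of line and treatment over the 4 DMSO and PMA libraries, which would leave 1 residual degree of freedom, was not run. Differences of clone, culture and library preparation cannot be told apart from the knockdown, and depth limits loci near 1 FPKM.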

Other observations

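Several loci of a zinc finger gene cluster on chromosome 4 were higher in the knockdown line, a stretch chosen after its values were seen. Of the 18 expressed loci from Vps13d to Nppb (starts from 144972509 to 147985788), 4 were more than 2-fold higher with DMSO and 1 was lower, and the median log2 ratio was 0.14. Over all tested loci 2.83% were higher and 2.47% lower. Gm13139 (now Zfp991) had 0.577 and 4.17 FPKM in 427 and SP2bKD with DMSO, and Gm13157 (now Zfp984) had 0.608 and 2.66 FPKM. Gm13225 (now Zfp990) had 0.378 and 1.15 FPKM, and a locus named after ZNF160 that spans several such genes had 0.277 and 1.5 FPKM. All 4 were more than 2-fold above both 427 libraries in the 4 SP2bKD libraries, with Gm13139 at 40.3 FPKM in the GFP library. With DMSO the 4 loci reached 1 FPKM only in SP2bKD, so they were kept through the library where they were high. Their neighbours Zfp933 (6.25 and 5.82 FPKM) and Gm13251, now Zfp992 (3.04 and 3.47 FPKM), were within 2-fold. Members of this cluster resemble each other in sequence, so reads may have been divided between them. The lower locus was Nppb, which encodes B-type natriuretic peptide, with 3.25 and 1.48 FPKM with DMSO and 82.3 and 18.9 FPKM with PMA.

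Of the 87 loci for which all 4 SP2bKD libraries stood past 2-fold from both 427 libraries, 10 lay on the X chromosome (11.5%), which holds 3.08% of the tested loci. They include Itm2a, Rnf128 and Xlr3a, which were lower, and Pcdh19, Dmd and Nxf3, which were higher. Another 8, all lower, lay on chromosome 8 (9.20%, against 5.23% of the tested loci), among them Galnt7, Nqo1 and Zdhhc2. Zdhhc2, a palmitoyltransferase, had 2.63 and 4.97 FPKM in 427 and was listed at 0 in SP2bKD with DMSO and PMA.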
